A study of Homo sapiens with 24 samples.

Results

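Interferon-stimulated genes (ISGs), the genes that cells switch on when an interferon binds its receptor, were followed across all conditions of a study of 2 human epithelial cell lines. The set was a fixed list of 49 gene symbols of well-known ISGs, set by name with no threshold on these values but with earlier results of these data known, and 48 of the 49 had a probe that passed the detection filter, out of 12221 genes measured. STAT2 had no named probe and was not analysed here. The tested cells were SCC-61, an established line from a human head and neck squamous cell carcinoma, and HaCaT, an immortalized but nontransformed human skin keratinocyte line, served as its comparator. Each line was given AMP-18 (2 µg/ml), a protein of the gastric antrum also known as gastrokine-1 and studied for protection of epithelia, or was left untreated, and RNA was taken at 24 h or 2 h. The 8 groups were therefore SCC-61 with AMP-18 at 24 h, SCC-61 untreated at 24 h, SCC-61 with AMP-18 at 2 h, SCC-61 untreated at 2 h, and the same 4 groups of HaCaT, with 3 arrays in each and 24 in all. All groups were held in low-serum medium before treatment, no group received an interferon, and each tissue is represented by a single cell line. The lines were grown in different media, that of SCC-61 with added hydrocortisone, so that cell line and medium cannot be told apart in any comparison between lines.

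Type I and type III interferons signal through Janus kinases to a complex that holds STAT2 and IRF9 and binds the interferon-stimulated response element (ISRE) in the promoters of ISGs. Interferon gamma acts at another element, the gamma-activated site (GAS), the route by which IRF1 is induced. The proteins made include sensors of viral RNA, enzymes and GTPases that block viral replication, membrane proteins that stop viral entry or release, the ubiquitin-like modifier ISG15, and the transcription factors that keep the response going. In epithelial tumour cells a standing level of ISGs without added interferon has been described, and it is often discussed in connection with resistance to radiation and to chemotherapy.

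The promoters of 5 members with an ISRE core and of 1 with a GAS core are shown because they carry the elements that define the pathway and because these genes open the comparisons that follow. Each run holds 180 bases before to 30 bases after the RefSeq start (GRCh38.p14), written 5′ to 3′ on the strand of the gene, with matches to the core in capitals.
ISG15: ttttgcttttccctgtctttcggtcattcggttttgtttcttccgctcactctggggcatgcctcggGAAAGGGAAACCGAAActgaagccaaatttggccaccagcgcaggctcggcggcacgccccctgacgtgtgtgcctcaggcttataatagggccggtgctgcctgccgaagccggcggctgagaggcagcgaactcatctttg
IFIT1: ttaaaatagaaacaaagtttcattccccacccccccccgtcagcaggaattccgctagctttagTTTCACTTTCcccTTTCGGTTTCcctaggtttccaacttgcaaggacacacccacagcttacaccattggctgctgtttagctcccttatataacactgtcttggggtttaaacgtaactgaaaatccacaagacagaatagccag
IFI27: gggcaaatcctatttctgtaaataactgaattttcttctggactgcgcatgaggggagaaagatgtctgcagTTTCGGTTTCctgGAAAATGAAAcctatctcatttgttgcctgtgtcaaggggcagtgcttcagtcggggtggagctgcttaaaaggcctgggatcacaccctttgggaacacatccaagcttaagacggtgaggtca
MX1: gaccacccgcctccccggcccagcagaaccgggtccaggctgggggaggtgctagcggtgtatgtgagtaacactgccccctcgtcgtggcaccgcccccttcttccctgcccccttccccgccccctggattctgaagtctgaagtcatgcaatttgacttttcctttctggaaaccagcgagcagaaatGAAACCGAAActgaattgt
IFI44L: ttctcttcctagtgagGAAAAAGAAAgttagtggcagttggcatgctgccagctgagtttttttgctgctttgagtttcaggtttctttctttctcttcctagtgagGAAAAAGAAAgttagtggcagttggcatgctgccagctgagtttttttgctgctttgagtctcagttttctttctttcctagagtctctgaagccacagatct
IRF1: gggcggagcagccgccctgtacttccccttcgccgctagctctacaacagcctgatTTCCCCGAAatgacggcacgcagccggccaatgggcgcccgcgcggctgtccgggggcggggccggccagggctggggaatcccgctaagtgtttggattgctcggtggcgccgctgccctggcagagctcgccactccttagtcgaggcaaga
The windows lie at chr1:1013317-1013526 on the plus strand for ISG15, chr10:89392443-89392652 (plus) for IFIT1, chr14:94110556-94110765 (plus) for IFI27, chr21:41420378-41420587 (plus) for MX1, chr1:78620268-78620477 (plus) for IFI44L and chr5:132490744-132490953 on the minus strand for IRF1. In ISG15 the matches began 113 and 107 bases before the start and shared bases, in IFIT1 they began 116 and 103 bases before it, and in IFI27 108 and 95 bases before it. The 2 matches of IFI44L began 164 and 73 bases before the start, within a repeated stretch. For MX1, which has 3 listed starts, the window shown had its match within the transcript, from base 12 on. The capitals of IRF1, 124 bases before its start, mark the GAS core.

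The ISRE core searched was GAAANNGAAA and the GAS core TTCNNNGAA, each on both strands, in windows of 250 bases before to 50 bases after each start. Of the 49 members, 39 had such a window, and 26 of these (66.7%) held the ISRE core, against 1195 of 27305 genes overall (4.38%). At least 2 ISRE cores in 1 window were found for 14 of the 39 members (35.9%) and for 85 of all genes (0.311%). The GAS core was present for 13 members (33.3%) and for 2560 genes overall (9.38%). The cores overlapped each other in 6 of the 53 member windows and in 22 of all 35116 windows. These matches describe letters in a window and do not show binding.

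Expression was read as deposited log2 signal on Illumina bead arrays, so that a difference of 1 on this scale is a doubling, and a probe was counted as detected where its detection p was under 0.05. Between 18767 and 22161 of 47323 probes were detected per array, and all values below are differences within 1 probe, taken as the brightest probe of a gene. All 48 measured members were detected on every SCC-61 array, against 37 to 45 of them on a HaCaT array. MX2, CMPK2, IFI44L, IFI27 and RSAD2 passed the filter only through SCC-61 groups, since no HaCaT group had them detected on all its arrays. For these members the filter itself required detection in SCC-61, and they also count in the comparisons between lines below. The keratinocyte markers with a probe, 10 of 13 listed, were detected on all 12 arrays of both lines. Of 10 leukocyte markers with a probe, PTPRC, CD3E, CD2 and CLEC4C were detected on no array of either line, whereas CD14 and CD68 were detected on all. The summed linear level of the leukocyte markers was 761 to 1170 in SCC-61, against 287 to 352 in HaCaT, and that of 7 fibroblast markers, of which PDGFRB and THY1 were detected on no array, was 206 to 434 in SCC-61 and 98.2 to 378 in HaCaT. ITGAM was detected on 9 SCC-61 arrays and 0 HaCaT arrays, and MS4A1 on 4 and 2. LYZ went the other way, on 5 SCC-61 and 6 HaCaT arrays, as did IL3RA, on 3 and 7. CD68 was the brightest leukocyte marker in both lines, so it weighs most in their summed linear level. Every SCC-61 array had more CD68 signal than every HaCaT array, whereas the mean of CD14 was lower in SCC-61. The part of these markers in the ISG differences was not tested. RNA came from whole cultures, so fewer expressing cells and less RNA per cell cannot be told apart.

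Averaged over the 48 members, the log2 signal separated the lines on every array, and time separated it again within each line. It was 9.67, 9.68 and 9.67 in SCC-61 with AMP-18 at 24 h, against 9.52, 9.55 and 9.56 in untreated SCC-61 at 24 h. At 2 h it was 8.59, 8.57 and 8.58 with AMP-18 and 8.54, 8.57 and 8.55 untreated. The HaCaT arrays lay far below, at 6.93, 6.91 and 6.90 with AMP-18 and 7.02, 7.03 and 6.98 untreated at 24 h. At 2 h the HaCaT means were 6.30, 6.26 and 6.28 with AMP-18 and 6.28, 6.33 and 6.31 untreated. The lowest SCC-61 array was thus above the highest HaCaT array. The AMP-18 arrays at 24 h lay above the untreated ones in SCC-61 and below them in HaCaT, with no overlap in either line. The per-array medians over the members did overlap at 24 h, at 9.69 to 9.82 with AMP-18 and 9.63 to 9.71 untreated in SCC-61, and at 6.75 to 6.91 and 6.80 to 6.88 in HaCaT. The mean over all genes tested moved the same way by less and without overlap, at 6.96 with AMP-18 on each array and 6.95 to 6.96 untreated in SCC-61 at 24 h, and at 6.88 to 6.90 and 6.91 to 6.92 in HaCaT. Over all arrays it was 6.92 to 6.96 in SCC-61 and 6.85 to 6.92 in HaCaT. The labels do not say whether arrays of 1 group stem from cultures grown apart, and the p-values below therefore measure only the spread between these arrays.

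**Figure D1:**
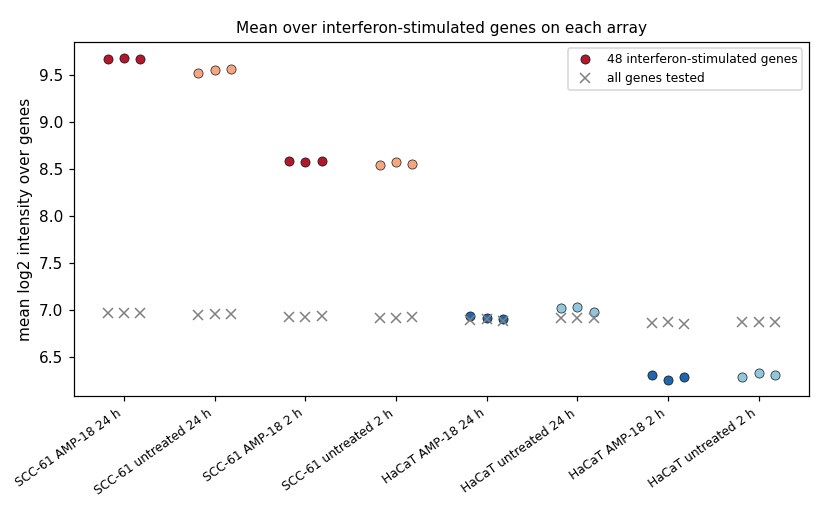
Mean deposited log2 signal over 48 ISGs (points) and over all genes tested (crosses) on each of the 24 arrays, by group. The ISG mean is 9.52 to 9.68 in SCC-61 at 24 h and 8.54 to 8.59 at 2 h, against 6.90 to 7.03 and 6.26 to 6.33 in HaCaT, while the mean over all genes stays between 6.85 and 6.96.

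The first comparison asked how the cancer line differed from the nontransformed line without AMP-18. At 24 h, 45 of 48 ISGs were higher in SCC-61 and 0 were lower (limma, Benjamini-Hochberg adjusted p under 0.05 over all kept probes), where 33.9% of all genes tested were higher. The median difference over the members was 2.16 on the log2 scale, against -0.04 over all genes. At 2 h, 45 members were higher and 1 lower, where 31.3% of all genes were higher and 32.0% lower, and the median was 2.06, against -0.01 over all genes. The same held between AMP-18-treated cells. There, 46 members were higher and 0 lower at 24 h, with 36.1% of all genes higher, and 46 were higher and 1 lower at 2 h, with 32.0% of all genes higher and 33.1% lower. The treated and the untreated contrasts use different arrays, and 44 members were called higher in SCC-61 in all 4 of them, where 20.6% of all genes were. For 39 members every SCC-61 array, whatever the treatment and time, lay above every HaCaT array, where 13.5% of all genes did so. The untreated difference exceeded 1 for 42 members at 24 h and 39 at 2 h, and it exceeded 4 for 9 and 5 of them. Those past 4 include IFI44L at 24 h and IFI27 at 2 h, each on a probe not above background in the HaCaT group compared. The shares of all genes past these sizes are not given here.

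**Figure D2:**
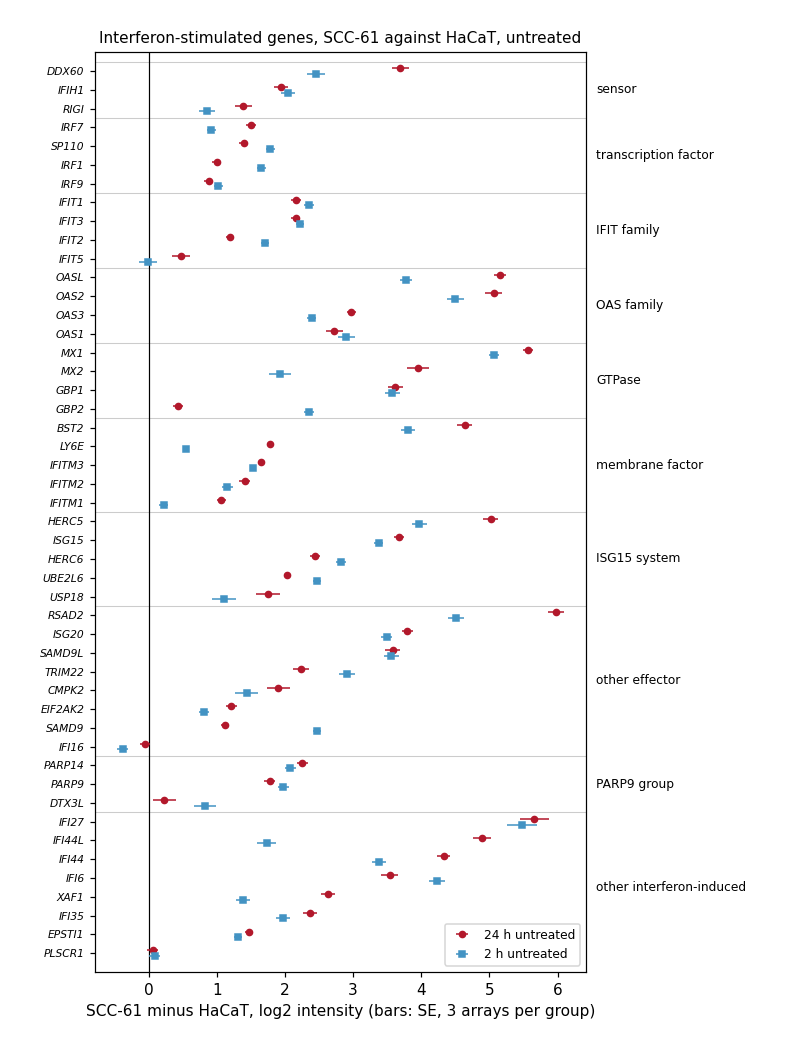
Log2 difference, untreated SCC-61 minus untreated HaCaT, for each of 48 ISGs at 24 h and 2 h, grouped by role, with SE bars. Almost all points lie right of 0, and 9 members exceed 4 at 24 h, among them IFI44L, whose probe was not above background in HaCaT.

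Among the antiviral GTPases, MX1, which traps viral nucleocapsids, was 5.57 ± 0.07 (SE) higher in untreated SCC-61 at 24 h, or 47.5-fold (adjusted p = 1.67e-31), and 33.6-fold higher at 2 h. Its untreated values were 11.32, 11.49 and 11.49 in SCC-61 against 5.77, 5.91 and 5.92 in HaCaT at 24 h. At 2 h they were 9.84, 10.00 and 9.95 in SCC-61 and 4.90, 4.86 and 4.81 in HaCaT, so the lines lay far apart at both times. MX2, its paralog, was not above background in any HaCaT group and was at least 11.1-fold higher in SCC-61 at 24 h and at least 3.10-fold higher at 2 h. Such bounds set the SCC-61 mean against the higher of the HaCaT probe's own signal and the dimmest detected signal of each array. GBP1, an interferon-inducible guanylate-binding protein, was 12.3-fold higher at 24 h and 11.9-fold higher at 2 h, with its probe detected on 10 of the 12 HaCaT arrays. Its neighbour GBP2 was only 1.35-fold higher in SCC-61 at 24 h but 5.10-fold higher at 2 h.

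RSAD2 (viperin), a radical SAM enzyme that makes a chain-terminating nucleotide, showed 10.52, 10.27 and 10.55 in untreated SCC-61 at 24 h, against 4.57, 4.58 and 4.28 in untreated HaCaT. The difference of 5.97 ± 0.12 (SE) was 62.8-fold (adjusted p = 5.92e-27) with HaCaT detected on 2 of 3 arrays, and at 2 h it was 22.7-fold, again with 2 of 3 detected. IFI27, a mitochondrial and nuclear membrane protein widely used as a marker of interferon exposure, was 10.02, 10.12 and 10.18 in SCC-61 and 4.27, 4.50 and 4.58 in HaCaT at 24 h. That was a 50.5-fold difference (adjusted p = 7.61e-20), with HaCaT detected on 2 of 3 arrays, and at 2 h, with no HaCaT array above background, it was at least 24.1-fold. IFI44L, whose protein dampens the interferon response, has 2 kept probes that gave different sizes. Its brightest probe was above background in no HaCaT group and was at least 12.4-fold higher in SCC-61 at 24 h and at least 2.30-fold at 2 h. The second probe, detected on 9 of 12 HaCaT arrays, differed by 0.66 at 24 h (adjusted p = 0.00181) and by 0.15 at 2 h (adjusted p = 0.513).

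The OAS enzymes, which make the 2-5A messenger that activates RNase L, were all higher in SCC-61, with a median over the family of 4.02 on the log2 scale at 24 h and 3.34 at 2 h. OAS2 had values of 10.50, 10.69 and 10.70 in untreated SCC-61 at 24 h and of 5.50, 5.51 and 5.69 in HaCaT, a 33.5-fold difference, and it differed 22.6-fold at 2 h. OASL, a relative that lacks the enzyme activity and enhances RIG-I signalling, was 35.6-fold higher at 24 h and 13.7-fold higher at 2 h. OAS1 was 6.62-fold higher at 24 h and 7.48-fold higher at 2 h. In each of the 4 genes all SCC-61 arrays lay above all HaCaT arrays.

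ISG15, the ubiquitin-like modifier, stood at 11.88, 11.99 and 12.05 in untreated SCC-61 at 24 h and at 8.31, 8.27 and 8.31 in HaCaT, a difference of 12.8-fold (adjusted p = 2.3e-27). At 2 h it was 11.14, 11.27 and 11.16 in SCC-61, against 7.76, 7.82 and 7.87 in HaCaT, or 10.4-fold. The other 4 listed members of the ISG15 system were also higher. HERC5, the main ISG15 ligase, was 32.4-fold higher at 24 h and 15.7-fold higher at 2 h, while USP18, the protease that removes ISG15 and restrains the type I receptor, was 3.36-fold and 2.16-fold higher. The USP18 probe was detected on only 8 of the 12 HaCaT arrays, treated and untreated. The 5 members of this system had a median of 2.44 at 24 h and 2.83 at 2 h on the log2 scale.

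The RNA-binding IFIT proteins and the membrane factors had lower medians, 1.67 and 1.65 at 24 h. IFIT1, which binds viral RNA lacking the host cap methylation, was 10.78, 10.58 and 10.70 in untreated SCC-61 at 24 h and 8.59, 8.49 and 8.48 in HaCaT, a 4.49-fold difference, with 5.12-fold at 2 h. BST2 (tetherin), which holds budding virus at the cell surface, was 24.9-fold higher at 24 h and differed by 3.81 on the log2 scale at 2 h, with 2 of 3 HaCaT arrays detected at 2 h. IFITM3, which blocks fusion in endosomes, was 3.13-fold and 2.88-fold higher at those times. IFITM1 differed 2.10-fold at 24 h and 1.17-fold at 2 h (adjusted p = 0.00358), where its values were 8.31, 8.40 and 8.30 in SCC-61 and 8.08, 8.07 and 8.19 in HaCaT. The 3 sensors were also higher. RIGI (RIG-I), the cytosolic sensor of triphosphorylated RNA, was 2.62-fold higher at 24 h and 1.81-fold higher at 2 h.

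The transcription factors of the list showed the smallest median by role, 1.20 at 24 h. IRF9, the DNA-binding partner of STAT2, was 9.99, 9.98 and 9.99 in untreated SCC-61 at 24 h and 9.03, 9.07 and 9.21 in HaCaT, a 1.84-fold difference, and it differed 2.03-fold at 2 h. DTX3L, IFI16, IFIT5 and PLSCR1 were the 4 members not called higher in every contrast between lines. For PLSCR1, a phospholipid scramblase, the untreated difference was 0.06 at 24 h (adjusted p = 0.541) and 0.09 at 2 h (adjusted p = 0.366), with overlapping values at 24 h of 7.30, 7.26 and 7.34 in SCC-61 and 7.18, 7.28 and 7.27 in HaCaT. IFI16, a DNA sensor of the nucleus, had a difference of -0.38 ± 0.08 (SE) at 2 h, lower in SCC-61 (adjusted p = 9.23e-05), and at 24 h had a difference of -0.05 (adjusted p = 0.593). Its values at 2 h were 8.70, 8.79 and 8.82 in SCC-61 and 9.17, 9.14 and 9.14 in HaCaT. IFIT5 differed by 0.47 at 24 h (adjusted p = 0.00181) and by -0.01 at 2 h (adjusted p = 0.966). DTX3L, a ubiquitin ligase that pairs with PARP9, differed by 0.23 at 24 h (adjusted p = 0.234) and by 0.83 at 2 h (adjusted p = 8.46e-05).

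**Figure D3:**
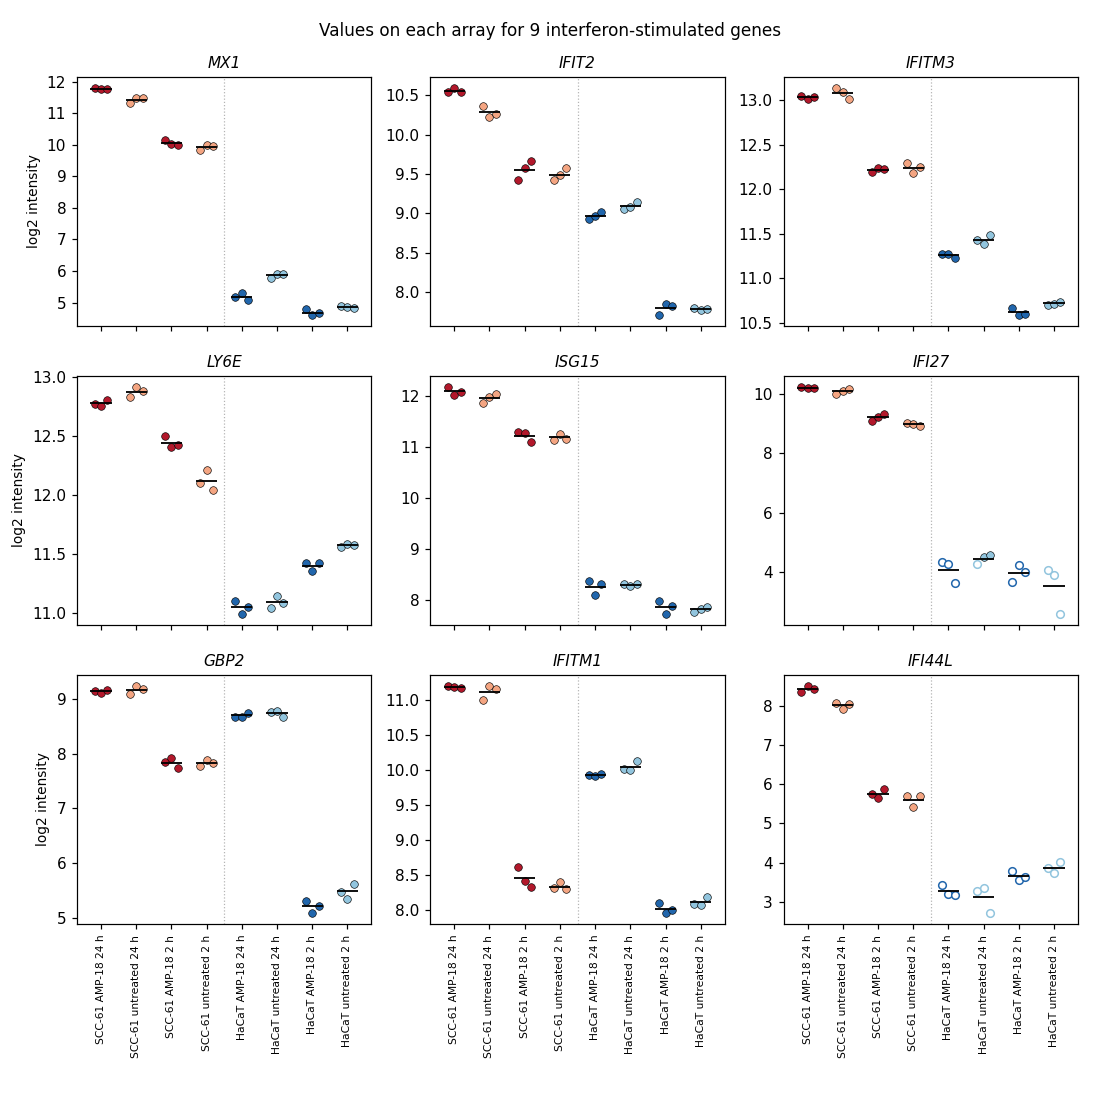
Deposited log2 signal of 9 ISGs on each array, by group, with a line at the group mean and open points for arrays where the probe was not detected. MX1 lies at 9.84 or above on every SCC-61 array and at 5.92 or below on every HaCaT array, whereas GBP2 in HaCaT is 8.67 to 8.78 at 24 h and 5.09 to 5.62 at 2 h, treated and untreated.

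The second comparison asked what AMP-18 did to the ISGs in each line. In SCC-61 at 24 h, 2 members, MX1 and IFIT2, were called higher with AMP-18 and 0 were called lower, where 0.344% of all genes tested changed in either direction. Of the 48 differences 41 were positive, and the median was 0.12, against 0.01 over all genes. All 3 treated arrays lay above all 3 untreated arrays for 20 members, where 10.9% of all genes did so. In HaCaT at 24 h, MX1 and IFITM3 were called lower and 0 members were called higher, where 1.90% of all genes changed in either direction. Here 12 of 48 differences were positive, the median was -0.06 against -0.02 over all genes, and 11 members had all treated arrays below all untreated arrays, where 10.5% of all genes did. The contrasts of the 2 lines share no arrays. The methods' t-test is the one named in the study's general statistics, not the ranking by Fisher's ratio that the study used for its arrays. With Benjamini-Hochberg adjustment it called 0 members in either line at either time. At its unadjusted threshold it called 17 in SCC-61 at 24 h, where it called 11.5% of all genes. In HaCaT at 24 h it called 8, where it called 9.92% of all genes.

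MX1 was called at 24 h in both lines. In SCC-61 it was 11.79, 11.77 and 11.77 with AMP-18 against 11.32, 11.49 and 11.49 untreated, a difference of 0.35 ± 0.07 (SE) or 1.27-fold (adjusted p = 0.0282). In HaCaT it was 5.18, 5.29 and 5.07 with AMP-18 against 5.77, 5.91 and 5.92 untreated, a difference of -0.69 ± 0.07 (SE), or 1.61-fold lower (adjusted p = 1.11e-06). Treated and untreated arrays did not overlap in either line, and all were above background. The AMP-18 effect in SCC-61 minus that in HaCaT was 1.03 ± 0.10 (SE), with a 95% interval of 0.83 to 1.24 (adjusted p = 1.12e-06). At 2 h the MX1 effect was 0.14 in SCC-61 (adjusted p = 0.259) and -0.17 in HaCaT (adjusted p = 0.543), and the difference between lines of 0.31 ± 0.10 (SE) did not pass (adjusted p = 0.0783). The call of MX1 in HaCaT was kept in every fit without 1 array, with adjusted p at most 3.96e-05, while that in SCC-61 was lost in 5 of 6 such fits, with adjusted p up to 0.162. With a fit on the compared arrays alone the HaCaT call was lost (adjusted p = 0.0725), and with no trend in the variance the SCC-61 call was (adjusted p = 0.0919).

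IFIT2, an RNA-binding protein of the IFIT family, was 10.54, 10.59 and 10.54 with AMP-18 in SCC-61 at 24 h, against 10.36, 10.23 and 10.26 untreated. The difference was 0.28 ± 0.06 (SE), or 1.21-fold (adjusted p = 0.0364). In HaCaT at 24 h its values were 8.93, 8.96 and 9.01 with AMP-18 and 9.06, 9.08 and 9.14 untreated, a difference of -0.13 (adjusted p = 0.309). No arrays overlapped in SCC-61, and the difference between the effects in the lines was 0.40 ± 0.08 (SE, adjusted p = 0.0398). This call was lost in 10 of 12 fits without 1 array, with adjusted p up to 0.135, and that within SCC-61 in 5 of 6, up to 0.176. IFITM3 in HaCaT at 24 h was 11.27, 11.28 and 11.23 with AMP-18 against 11.43, 11.38 and 11.48 untreated, a difference of -0.18 ± 0.04 (SE), or 1.13-fold lower (adjusted p = 0.0276). Leaving out 1 array lost it in 5 of 6 fits, with adjusted p up to 0.117. In SCC-61 the IFITM3 effect was -0.05 (adjusted p = 0.789), and the effects were not shown to differ between the lines (0.13 ± 0.06 (SE), adjusted p = 0.401).

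Tested across all members, the AMP-18 effect at 24 h was higher in SCC-61 than in HaCaT for MX1 and IFIT2, where 0.164% of all genes passed in that direction. The difference was positive for 45 of 48 members, with a median of 0.20 against 0.03 over all genes. All members were read on the same arrays, so such counts of signs, here and within each line, are not separate observations. The share of all genes with a positive sign is not given here. Further members did not pass, and their probes did not give the same sizes. IFIT3 had an effect of 0.26 in SCC-61 at 24 h (adjusted p = 0.0569) on its brightest probe. Its other kept probes gave 0.17 (adjusted p = 0.733) and 0.02 (adjusted p = 0.98). The effect of IFIT1 differed between lines by 0.38 (adjusted p = 0.104) on its brightest probe. Its other kept probe, detected on 0 HaCaT arrays, gave -0.27 (adjusted p = 0.661). The limits of these data were set by the spread between arrays, since the 95% interval of an AMP-18 effect had a median half-width of 0.17 on the log2 scale. In absolute size, 38 members in SCC-61 and 41 in HaCaT had effects under 0.2 at 24 h.

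**Figure D4:**
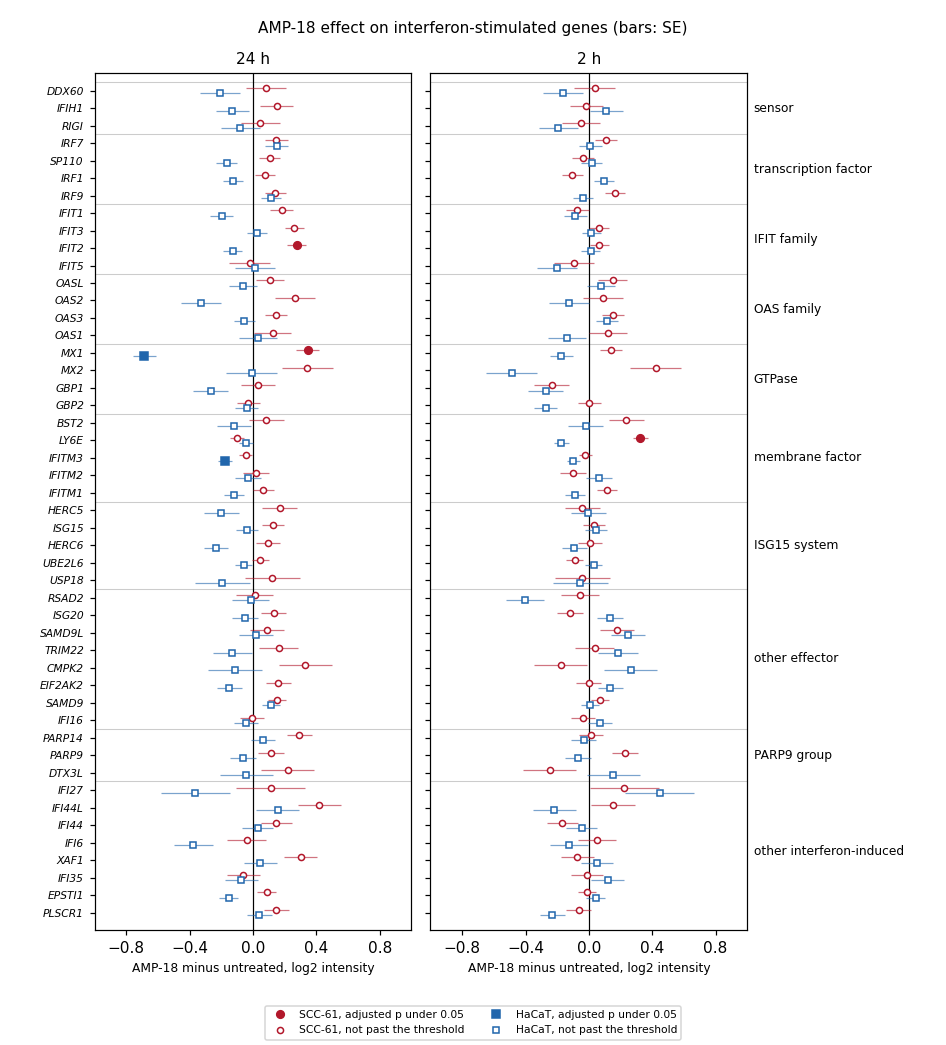
Log2 difference, AMP-18 minus untreated, for 48 ISGs at 24 h (left) and 2 h (right), with SE bars, in SCC-61 (red circles) and HaCaT (blue squares). Filled points have an adjusted p under 0.05. MX1 is filled in both lines at 24 h, at 0.35 in SCC-61 and -0.69 in HaCaT, and LY6E is the filled point at 2 h.

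At 2 h, LY6E was the member called in SCC-61, where 9.53% of all genes changed in either direction. LY6E, a GPI-anchored protein that restricts coronavirus entry and is induced by type I interferon, was 12.50, 12.41 and 12.42 with AMP-18 and 12.10, 12.21 and 12.04 untreated. The difference was 0.32 ± 0.05 (SE), or 1.25-fold (adjusted p = 6.87e-05), and it was kept in each of 6 fits without 1 array. In HaCaT at 2 h LY6E was 11.42, 11.35 and 11.42 with AMP-18 and 11.56, 11.58 and 11.57 untreated, a difference of -0.17 (adjusted p = 0.254). The arrays of treated and untreated cells did not overlap in either line at 2 h. The effects differed between the lines by 0.50 ± 0.06 (SE, adjusted p = 8.46e-05) at 2 h and by -0.06 (adjusted p = 0.8) at 24 h. In HaCaT at 2 h, 0 members were called by limma and 0 by the methods' t-test after Benjamini-Hochberg, where 0% of all genes changed, and 10 members had an unadjusted p under 0.05 by limma (7.64% of all genes) and 6 by the t-test (9.59% of all genes).

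MX2 passed the test of the difference between lines at 2 h, with 0.91 ± 0.23 (SE, adjusted p = 0.019), where 3.26% of all genes were higher in that test. It was 6.52, 6.29 and 6.58 with AMP-18 and 6.08, 5.95 and 6.08 untreated in SCC-61 at 2 h, a difference of 0.42 ± 0.16 (SE) that did not itself pass (adjusted p = 0.106). In HaCaT no MX2 array was above background in either group, so that its part of the difference rests on background values. The call was lost in 4 of 12 fits without 1 array, with adjusted p up to 0.0637. MX2 and LY6E were the members called in this test, a count close to the share of all genes, and the median over the 48 was 0.05. In SCC-61 at 2 h the median AMP-18 effect was 0.00, with 25 of 48 members positive, and in HaCaT it was -0.01.

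The third comparison set 24 h against 2 h in untreated cells. Both lines had more ISG signal at 24 h, and SCC-61 had it for more members. In untreated SCC-61, 43 of 48 members were higher at 24 h and 0 were lower, where 29.0% of all genes were higher, and the members' median was 0.94. In untreated HaCaT, 33 were higher and 4 lower, where 33.1% of all genes were higher and 31.5% lower, and the members' median was 0.69 against 0.02 over all genes. With AMP-18, 45 members were higher and 0 lower at 24 h in SCC-61, where 27.9% of all genes were higher. In HaCaT with AMP-18, 32 were higher and 4 lower, where 33.0% of all genes were higher and 33.4% lower. In untreated cells 31 members were higher at 24 h in both lines, where 19.2% of all genes were. The 24 h and 2 h arrays differ in time in culture and may have been handled apart, and the labels do not separate these.

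In SCC-61 the largest time difference was that of IFITM1, an interferon-induced membrane protein of the cell surface, at 11.01, 11.20 and 11.15 at 24 h against 8.31, 8.40 and 8.30 at 2 h. That was 2.78 ± 0.06 (SE), or 6.88-fold (adjusted p = 2e-24), and in HaCaT IFITM1 was 3.83-fold higher at 24 h (10.02, 10.00 and 10.12) than at 2 h (8.08, 8.07 and 8.19). IFI44L was 8.06, 7.91 and 8.04 in SCC-61 at 24 h and 5.70, 5.41 and 5.70 at 2 h, or 5.28-fold, on its brightest probe, which was not above background at either time in HaCaT. Its second probe gave a SCC-61 time difference of 0.41 that did not pass (adjusted p = 0.0581). MX2 was 3.50-fold and OASL 3.24-fold higher at 24 h in SCC-61. For MX2 there was no level above background in HaCaT, and for OASL the HaCaT difference was 0.32 (adjusted p = 0.0032). TRIM22, a ubiquitin ligase that restricts retroviruses, was 3.10-fold higher at 24 h in SCC-61 and at least 2.79-fold higher at 24 h in HaCaT, where it was not above background at 2 h.

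In HaCaT, GBP2 had the largest rise, with 8.77, 8.78 and 8.67 at 24 h against 5.48, 5.35 and 5.62 at 2 h. The difference of 3.26 ± 0.07 (SE) was 9.58-fold (adjusted p = 2.45e-25), and in SCC-61 it was 2.53-fold, at 9.09, 9.24 and 9.19 against 7.78, 7.88 and 7.84. Its neighbour GBP1 had differences of -0.16 in SCC-61 (adjusted p = 0.243) and -0.20 in HaCaT (adjusted p = 0.125). IRF9 was 3.40-fold higher at 24 h in HaCaT, and SAMD9, an antiviral protein that blocks translation, was 3.17-fold higher at 24 h in HaCaT and 1.25-fold in SCC-61. LY6E, IFI44, IFI44L and EIF2AK2 were the 4 members called lower at 24 h in HaCaT. LY6E was 11.04, 11.14 and 11.09 at 24 h and 11.56, 11.58 and 11.57 at 2 h, or 1.40-fold lower (adjusted p = 1.77e-10), while in SCC-61 it was 1.69-fold higher at 24 h. IFI44 was 1.62-fold lower at 24 h in HaCaT (adjusted p = 3.87e-07), and the call of IFI44L rests on a probe not above background at either time, the second probe giving -0.11 (adjusted p = 0.632). EIF2AK2 (PKR), the kinase that halts translation on sensing double-stranded RNA, differed by -0.22 ± 0.08 (SE, adjusted p = 0.0165), a call lost with cyclic loess and in 2 of 6 fits without 1 array, with adjusted p up to 0.189.

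The time difference itself differed between the lines for 33 of 48 members, higher in SCC-61 for 23 and lower for 10, where 22.0% of all genes were higher and 23.6% lower in that test. The median was 0.28 against -0.01 over all genes. The largest positive differences were those of IFI44L (3.16 ± 0.19 (SE)) and MX2 (2.03 ± 0.23 (SE)), both on probes not above background in HaCaT. The second IFI44L probe gave 0.51 and did not pass (adjusted p = 0.109). RSAD2, detected on 2 of 3 HaCaT arrays at each time, had 1.46, OASL had 1.38 and XAF1, an antagonist of apoptosis inhibitors, had 1.24. In untreated SCC-61 XAF1 was 8.59, 8.85 and 8.79 at 24 h and 7.12, 7.19 and 7.10 at 2 h, and in HaCaT 6.26, 5.95 and 6.12 at 24 h and 5.67, 5.73 and 5.84 at 2 h. On the other side GBP2 differed by -1.92 ± 0.10 (SE), SAMD9 by -1.35, TRIM22 by -0.68 (0.059 where a constant of 16 was added to the linear signal) and IRF1, the factor that drives interferon gamma responses, by -0.65. IFI6, an inhibitor of apoptosis, differed by -0.70 on its brightest probe and by 0.76 on another, so that its direction depended on the probe.

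**Figure D5:**
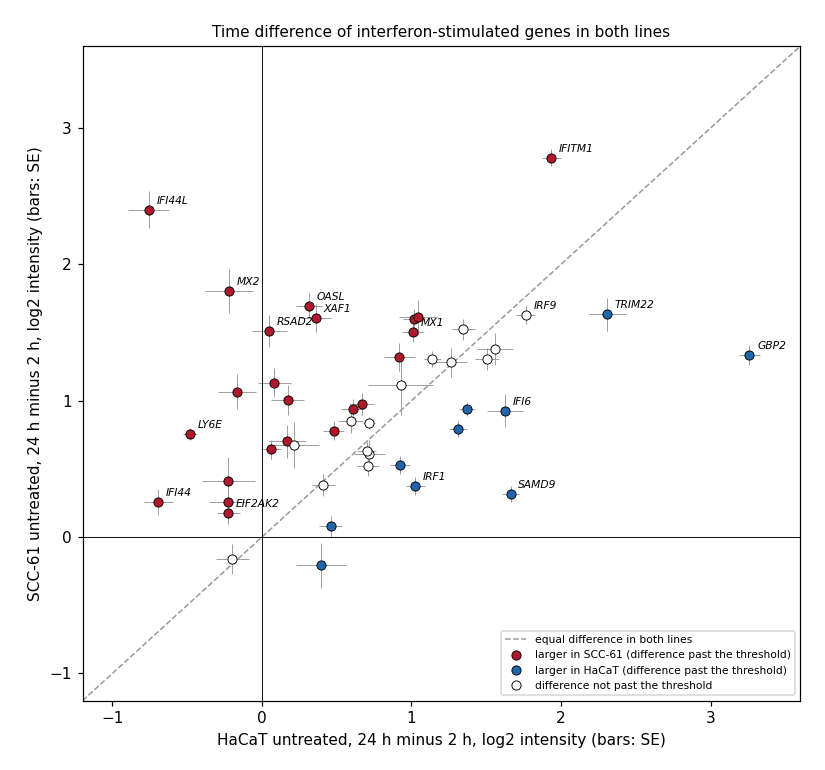
Log2 difference, 24 h minus 2 h in untreated cells, in SCC-61 (vertical axis) and in HaCaT (horizontal axis), for 48 ISGs, coloured by whether the difference between lines was called, with a dashed line where both are equal. GBP2 lies far to the right at 3.26 in HaCaT, and IFI44L, drawn from its brightest probe, which was not above background in HaCaT, lies at the upper left.

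More than 1 kept probe was available for 14 members. The members called in an AMP-18 contrast have 1 kept probe each, so those calls could not be compared between probes. In the untreated line difference the probes of OAS1 differed in call at 24 h and those of IFI44L, OAS1, OAS3 and SP110 at 2 h. In the time comparison the probes differed in call for 7 members in SCC-61 and 6 in HaCaT, where the probes of IFIT3 were called in opposite directions. In the difference of time between lines they differed in call for 7 members (IFI44L, IFI6, IFIT3, OAS2, OAS3, SP110 and UBE2L6). Members of the IFIT, IFITM and SAMD9 families are close paralogs, and how far a probe of one reads another was not tested.

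Members also share genome position. Of the 48, 25 lie in 15 neighbouring pairs with at most 2 coding genes between them, among them the IFIT genes on chromosome 10, the IFITM genes on chromosome 11 and the OAS genes on chromosome 12. Neighbours did not always move together, as GBP1 and GBP2 show. By promoter, the 26 measured members with an ISRE core had a median untreated line difference at 24 h of 2.61 (range 0.06 to 5.97), with 24 called, and the 12 without one had a median of 1.97 (range -0.05 to 3.58), with 11 called. The 14 with at least 2 cores had a median of 3.25 at 24 h. At 2 h the medians were 2.37 with a core, 1.72 without and 2.37 with at least 2 cores. For time in untreated cells, the medians with and without a core were 0.88 and 0.94 in SCC-61 and 0.58 and 0.92 in HaCaT. These are descriptions without a test.

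The pathway upstream of the ISGs was read from a separate list of 52 genes, of which 30 passed the filter. Of 21 interferon genes listed as ligands, 1 (IFNE, the epithelial type I interferon) was kept, and 13 were detected on no array. IFNE was called higher in untreated SCC-61 at 24 h, with a mean of 4.83 against 4.29 in HaCaT, and was not called at 2 h. Its signal was low, and no probe of it was detected on more than 11 SCC-61 or 8 HaCaT arrays. The 6 receptor chains were all measured, with 4 higher in untreated SCC-61 at 24 h and 5 at 2 h. Over all 30 genes, 19 were higher and 5 lower in SCC-61 at 24 h, where 33.9% of all genes were higher and 36.6% lower, and 16 were higher and 7 lower at 2 h, where the shares were 31.3% and 32.0%. DHX58 (LGP2), which tunes RIG-I and MDA5, differed by 2.25 at 24 h, and IFNLR1, the specific chain of the type III interferon receptor, by 1.97 with 2 of 3 HaCaT arrays detected. Another kept IFNLR1 probe was detected on all 12 HaCaT arrays and was not compared here. CGAS, the cytosolic DNA sensor, was detected on all 3 untreated arrays of SCC-61 and 1 of HaCaT at 24 h, and at 2 h, with every array of both groups detected, it differed by 1.09. IRF5 ran the other way, at least 3.19-fold higher in HaCaT at 24 h with SCC-61 not above background. With AMP-18 in SCC-61 at 2 h, 4 of the 30 rose, where 6.28% of all genes did, namely STING1 by 0.31 (adjusted p = 0.00638), IFNAR1 by 0.28 (adjusted p = 0.0424), IFNGR1 by 0.23 (adjusted p = 0.00461) and TRIM25 by 0.22 (adjusted p = 0.0429), and 0 were called in the other 3 AMP-18 contrasts.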

How the data were processed

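RNA of 24 samples, 3 per group, had been hybridised to Illumina bead arrays. The authors deposited normalized log2 signals and a detection p-value for each of 47323 probes, exported from GenomeStudio (2011.1, per the submitters' processing notes). The normalization method is not given in the sources used here. Array medians were 4.2178 to 4.2202, so the deposited values had been equalised between arrays, which removes any overall shift. The number of arrays limits the precision.

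A probe was kept if every array in 1 or more groups detected it at p under 0.05 (21580, of which 16539 carried a single gene symbol and 5041 did not). limma 3.58.1 (R 4.3.3) was fitted to all 24 arrays as group means with a trended prior, and p-values were adjusted by Benjamini-Hochberg over all kept probes, with 0.05 as threshold. A gene was represented by its brightest kept probe. The script was tested on simulated data. No strong shared deviation was seen between arrays of the same replicate number (12 correlations of deviations, -0.16 to 0.05), and the main fit used no pairing. This cannot exclude paired cultures or handling, which the labels do not give. Promoters came from RefSeq (GRCh38.p14).

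The members, the other gene lists and the tests were chosen with earlier results of these data known. Members were named with values where they passed an AMP-18 or time test (up to 5 per contrast and direction), had the 6 largest or smallest line differences, or anchored a role. Alternatives were another filter, normalization, constant, fit, variance model, probe rule, test and leaving out each array.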

Additional observations from a re-analysis of the deposited data

Results flagged for a closer look

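Results where the 2 cell lines responded differently, each by a test of the difference itself in limma, were as follows. The AMP-18 effect at 24 h differed between SCC-61 and HaCaT for 2 members, MX1 (1.03) and IFIT2 (0.40), and at 2 h for 2 members, MX2 (0.91, with HaCaT not above background) and LY6E (0.50). Of all genes, 0.205% were called in that test at 24 h and 4.29% at 2 h. The 2 h count of 2 among 48 members was thus close to the share of all genes. The IFIT2 call was lost in 10 of 12 fits without 1 array, and with no filter, with only the compared arrays, with no variance trend and with the replicate block. That of MX2 was lost in 4 of 12 such fits and with no variance trend (adjusted p = 0.0563). The difference between 24 h and 2 h in untreated cells was unequal in the lines for 33 of 48 members, where 45.6% of all genes were called in that test. The values furthest apart, SCC-61 minus HaCaT on the log2 scale, were those of IFI44L (3.16, and 0.51 on its second probe, not called), MX2 (2.03), RSAD2 (1.46), OASL (1.38) and XAF1 (1.24) on one side. MX2 and the brightest IFI44L probe were not above background in HaCaT. GBP2 (-1.92), SAMD9 (-1.35), IFI6 (-0.70, and 0.76 on its second probe), TRIM22 (-0.68) and IRF1 (-0.65) stood on the other. TRIM22 was not above background in HaCaT at 2 h, and its direction turned with a constant of 16 added to the linear signal.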

How the results depend on the processing

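The counts between lines and between times stayed within 1.5 times their value under every alternative run; without 1 array they were 45 to 47 of 48 between lines, 41 to 43 (untreated) and 44 to 46 (AMP-18) for time in SCC-61, 35 to 37 and 36 to 38 in HaCaT, and 27 to 33 for the difference of time between lines. The AMP-18 counts, which are 2 or fewer, moved. For AMP-18 in SCC-61 at 24 h (2) the count was 1 with no filter, 4 with a constant of 16, 0 with no variance trend, 0 by the methods' t-test after adjustment and 17 before it. In SCC-61 at 2 h (1) it was 2 with the constant, 2 with only the compared arrays, and 0 and 7 by that t-test. In HaCaT at 24 h (2) it was 1 with no filter, the stricter filter or no trend, 0 with only the compared arrays, and 0 and 8 by that t-test. In HaCaT at 2 h (0) it was 1 with only the compared arrays and 6 by the unadjusted t-test. For the difference between lines at 24 h (2) it was 1 with no filter, the stricter filter, only the compared arrays, no trend or the replicate block, which lost IFIT2 (adjusted p = 0.0536). The block changed no other count by over 1.5 times. At 2 h (2) it was 1 with the stricter filter, with no trend and, an alternative chosen after seeing the data, with only members detected on all compared arrays. Leaving out 1 array gave 0 to 1 in SCC-61 and 1 to 2 in HaCaT at 24 h, 1 to 2 and 0 to 0 at 2 h, and 1 to 3 for each difference. Directions turned for IFIT5 between untreated lines at 2 h (0.063 with cyclic loess, and -0.069 to 0.049 without 1 array), IFI16 at 24 h (0.022 with cyclic loess, and -0.102 to 0.019 without 1 array), DTX3L at 24 h (-0.073 without replicate 3 and 0.493, a call, without replicate 2 of untreated HaCaT), and in the time difference between lines TRIM22 (0.059 with the constant) and IFI6 (0.030 with the mean of its probes). The cause was not tested. Signals near background limit MX2, IFI27, CMPK2 and the brightest IFI44L probe in HaCaT. At 2 h in HaCaT, SAMD9L and TRIM22 were not above background in either group, nor was RSAD2 with AMP-18.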

Other observations

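Further interferon-inducible genes outside the list of 49 were read from 2 other lists, likewise chosen with earlier results known. Of 16 measured genes of MHC class I antigen presentation, which load and display peptides to T cells, 15 were higher and 0 lower in untreated SCC-61 than in untreated HaCaT at 24 h (33.9% and 36.6% of all genes), with a median log2 difference of 1.44. HLA-B differed by 3.52. With AMP-18 in SCC-61 at 2 h, 6 of the 16 were called higher and 1 lower (6.28% and 3.25% of all genes), and 0 were called in the other 3 AMP-18 contrasts. Of 37 measured genes in a list of other inducible genes, 27 were higher and 2 lower in untreated SCC-61 at 24 h, against the same shares of all genes. Among these were CXCL10, a chemokine for T cells, with a log2 difference of 5.07 and 2 of 3 HaCaT arrays detected, LAMP3, a lysosomal membrane protein, at least 42.0-fold higher, and IDO1, a tryptophan-degrading enzyme, at least 18.8-fold higher. The LAMP3 bound holds for its brightest probe only. Its other kept probe was detected on all 12 HaCaT arrays and was not compared here. With AMP-18 in SCC-61 at 2 h, 4 of the 37 were called higher and 0 lower, against 6.28% and 3.25% of all genes. With AMP-18 at 24 h, 0 of the 37 were called in SCC-61, where 0.344% of all genes changed in either direction. In HaCaT at 24 h HELZ2 was called lower, with a difference of -0.27, where 1.25% of all genes were lower.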
